A study of Mus musculus with 19 samples.

Results

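The immediate early genes described here are a list of 10 genes, given by symbol: Fos, Fosb, Jun, Junb, Egr1, Egr2, Ier2, Ier3, Atf3 and Dusp1. Every probe set annotated to exactly 1 of these symbols was taken, which gave 12 probe sets among 45037 on the array, with a pair each for Jun and Egr2. They were followed in 19 medulloblastomas (Ptch+/-p53-/- mouse tumour cells, allografted beneath the flank skin of nude mice). The groups were 8 tumours treated with NVP-LDE225 at 40 mg/kg, 8 treated at 160 mg/kg and 3 given vehicle. NVP-LDE225 is an antagonist of Smoothened, the membrane protein that passes on the Hedgehog signal which Ptch otherwise holds back. By the tumour status in the labels all treated tumours were resistant and all vehicle tumours sensitive, so treatment, resistance and any difference in time on study form a single contrast, and the labels used here give no treated tumour that was still sensitive. The labels differ on this point: the source names call 2 treated tumours, 160 mg/kg tumours 6 and 7, resistant and the other 14 treated, whereas the tumour status is resistant for all 16. All groups shared the stated genotype, Ptch+/-p53-/-, and all were allografts whose host cells remained in the tissue. The state of the Ptch alleles in the tumour cells themselves was not examined here. RNA came from about 100 mg of flash-frozen tumour. How long each tumour lay between excision and freezing is not stated in those labels.

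Immediate early genes are transcribed within minutes of a stimulus, without new protein synthesis, because the factors that switch them on are already present in the cell. Serum response factor with its Elk partners binds the CArG box in many of their promoters, and CREB binds the cyclic AMP response element, both downstream of kinases such as ERK, JNK and p38. Fos and Jun proteins pair to form AP-1, Egr proteins are zinc finger factors, and Dusp1 is a phosphatase that switches the same kinases off again. In solid tissue these genes also respond to handling, such as surgery, cooling and lost blood supply, so their spread between tumours of 1 group was examined beside the group means.

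Promoter sequence came from RefSeq (GRCm38.p6), in a window of 250 bases before to 50 bases after the start. Windows were at hand for 8 of the 10 genes, not for Egr1 or Ier2, and those of Fos, Ier3, Dusp1 and Egr2 are printed. Capitals mark the CArG box, the cyclic AMP response element TGACGTCA and its core TGACG, the AP-1 element TGAGTCA, the TATA box TATAAA and the core of the hypoxia response element ACGTG, each searched on both strands. Each sequence reads 5′ to 3′ on the strand of its gene. The Fos window lies on the plus strand at chr12:85473640-85473939, the Ier3 window on the plus strand at chr17:35821463-35821762, the Dusp1 window on the minus strand at chr17:26508423-26508722, and the Egr2 window on the plus strand at chr10:67537619-67537918, which belongs to 1 of 5 annotated Egr2 starts.
Fos: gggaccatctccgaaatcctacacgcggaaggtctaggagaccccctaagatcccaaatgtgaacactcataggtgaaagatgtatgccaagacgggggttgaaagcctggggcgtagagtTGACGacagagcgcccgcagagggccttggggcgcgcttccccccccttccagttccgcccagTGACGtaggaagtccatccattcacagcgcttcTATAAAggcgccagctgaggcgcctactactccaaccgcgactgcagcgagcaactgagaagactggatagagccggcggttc
Ier3: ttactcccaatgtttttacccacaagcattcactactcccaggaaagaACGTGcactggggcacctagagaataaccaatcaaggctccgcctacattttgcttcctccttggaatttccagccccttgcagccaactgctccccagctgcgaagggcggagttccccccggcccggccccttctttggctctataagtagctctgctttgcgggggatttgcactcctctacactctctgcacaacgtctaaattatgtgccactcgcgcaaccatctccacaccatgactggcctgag
Dusp1: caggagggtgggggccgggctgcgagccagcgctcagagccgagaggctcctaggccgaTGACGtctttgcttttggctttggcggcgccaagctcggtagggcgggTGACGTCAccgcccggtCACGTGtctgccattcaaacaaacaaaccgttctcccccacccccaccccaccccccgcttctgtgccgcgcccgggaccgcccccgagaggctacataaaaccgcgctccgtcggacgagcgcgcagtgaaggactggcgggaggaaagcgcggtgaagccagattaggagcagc
Egr2: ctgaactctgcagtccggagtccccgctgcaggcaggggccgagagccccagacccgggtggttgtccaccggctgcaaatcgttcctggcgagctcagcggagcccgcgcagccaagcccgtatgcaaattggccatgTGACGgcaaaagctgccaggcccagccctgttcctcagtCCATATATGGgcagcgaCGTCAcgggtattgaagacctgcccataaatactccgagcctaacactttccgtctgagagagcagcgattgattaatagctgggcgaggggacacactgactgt
The Fos window held TGACG 129 and 66 bases before the start and TATAAA 33 bases before it. The Egr2 window held a CArG box 72 bases before the start between TGACG matches at 111 and 55 bases. The Dusp1 window held TGACGTCA 143 bases before the start, which overlaps 2 of its 3 TGACG matches, and a pair of overlapping ACGTG matches, whereas the Ier3 window held 1 ACGTG 202 bases before the start. Among 32851 RefSeq windows of the same 300 bases, 1.63% held a CArG box, 1.79% TGACGTCA, 20.8% TGACG, 5.2% TGAGTCA, 13.6% TATAAA and 19.6% ACGTG. A match describes letters only and was not tied to any value below. Sites farther than 250 bases before the start were not searched, so a motif missing from a window may still lie near the gene.

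Values are MAS5 signals on a linear scale, and differences were tested on log2 of the signal plus 2.5, which understates the change of dim genes. Probe sets had to exceed the array's 40th percentile on 3 or more arrays, and 9 of the 10 genes and 11 of the 12 probe sets remained among 13454 genes. Each gene was read through its probe set with the highest mean, and a gene was called at an adjusted p under 0.05. The labels do not say that the tumours of a group came from separate animals, so the p-values reflect variation among these samples alone, which may be technical. The tumours carried signal of the granule neuron precursor markers that the tissue label implies, with 13 of 14 markers measured and summed signals between 17726 and 21765 at 40 mg/kg, between 14346 and 24024 at 160 mg/kg and between 12361 and 13343 in vehicle. The members went both ways: against vehicle 8 of the 13 had a positive log2 difference for both doses and 5 a negative one. Of the positive ones 5 were called, where 5.29% of all genes were: Cntn2 (3.34), Neurod1 (1.22), Nhlh2 (1.05), Sox11 (0.89) and Zic1 (0.51). The negative ones, none called, were Atoh1 (-0.87), Barhl1 (-0.59), Meis1 (-0.49), Gli1 (-0.35) and Mycn (-0.19). Atoh1, the factor that defines granule neuron precursors, had a lowest, median and highest signal of 352.6, 887 and 1404 at 40 mg/kg and of 22.5, 819 and 1954 at 160 mg/kg, against 1196, 1321 and 1422 in vehicle. For Atoh1 6 of 8 tumours at 40 mg/kg and 7 of 8 at 160 mg/kg lay below all vehicle tumours, and 1 at 160 mg/kg lay above them. The arrays least like the others were vehicle tumour 3 and 160 mg/kg tumour 2, with mean correlations to the other arrays of 0.915 and 0.916, against 0.927 to 0.948 for the rest.

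Ier3 was the 1 listed gene called higher in treated tumours, and the other 8 tested genes were not called in either direction. Against this, 5.29% of all 13454 genes were called in the comparison of both doses with vehicle, 2.84% higher and 2.45% lower. The median log2 difference was 0.34 over the 9 listed genes, 7 of them positive, and -0.06 over all genes. In bulk tumour tissue, fewer cells of a type and less RNA per cell cannot be told apart.

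Ier3 encodes a stress-inducible protein that affects cell survival. Its probe set 1419647_a_at had a lowest, median and highest signal of 121.3, 217 and 300 at 40 mg/kg and of 109.6, 173 and 429.9 at 160 mg/kg, against 101.1, 95.8 and 63.1 in the 3 vehicle tumours. All 16 treated tumours lay above all 3 vehicle tumours, a separation in this direction that 1.99% of all genes showed. For separations of fewer than 16 treated tumours, here and below, the share over all genes was not counted. Mean signals were 210 ± 66.7 at 40 mg/kg, 207 ± 107 at 160 mg/kg (SD, n = 8 each) and 86.7 ± 20.6 in vehicle (SD, n = 3). The log2 difference for the mean of both doses was 1.16 (SE 0.32, 95% interval 0.50 to 1.83), with an adjusted p of 0.0423 in limma. At the single doses, which share the vehicle arrays, it was 1.21 (adjusted p = 0.0692) at 40 mg/kg and 1.12 (adjusted p = 0.0708) at 160 mg/kg, and neither was called.

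The call on Ier3 depended on the arrays included. Leaving out vehicle tumour 1, 2 or 3 gave log2 differences of 1.29, 1.25 and 0.96 with adjusted p = 0.103, 0.101 and 0.273, and without vehicle tumour 3 and 160 mg/kg tumour 2 together it was 0.92 with adjusted p = 0.263. Across the 19 fits with 1 array left out it was called in 11. Marker sums also differed between treated and vehicle tumours: the granule neuron precursor sums above, whose members went both ways, were higher at both doses than in vehicle, and 8 of 8 skin epithelium markers summed to 2339 to 5369 at 40 mg/kg, 263 to 3419 at 160 mg/kg and 5221 to 5914 in vehicle. The skin epithelium sum was carried by Krt10, a keratin, with means of 3605 at 40 mg/kg, 1914 at 160 mg/kg and 5509 in vehicle. Of the 8 skin epithelium markers 4 passed the filter and none was called for both doses, where 5.29% of all genes were. At an unadjusted p under 0.05 in limma it was 3 of the 4, against 23.3% of all genes. Krt10 (-1.31) and Krt5 (-0.48) were lower and Perp (0.91) higher. For Krt10, 15 of the 16 treated tumours lay below all vehicle tumours. The mean log2 level of the 4 markers overlapped between groups, at 6.04 to 6.79 at 40 mg/kg, 5.25 to 7.31 at 160 mg/kg and 6.07 to 6.96 in vehicle. The part of these markers in the result was not tested.

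**Figure D1:**
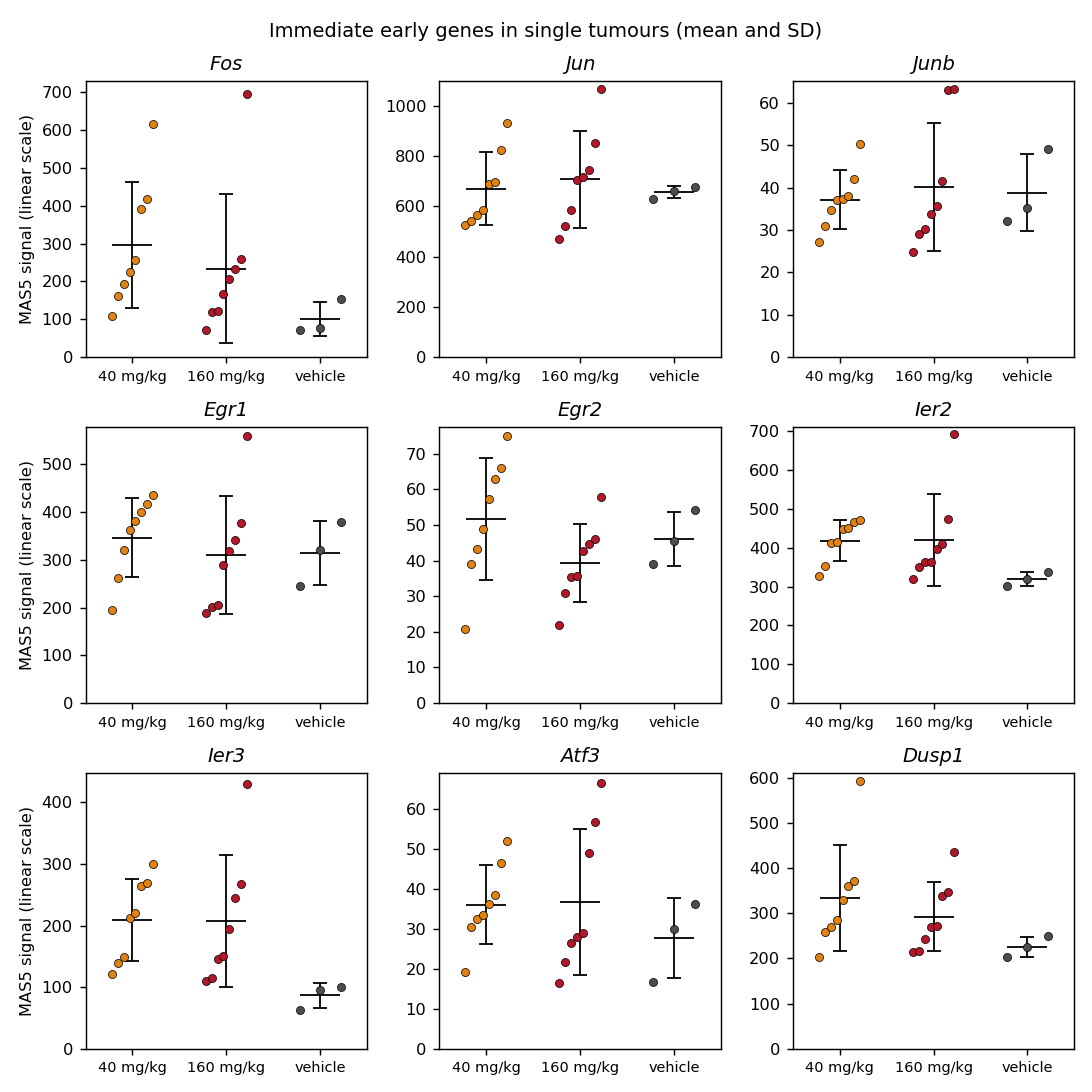
MAS5 signals of 9 immediate early genes in single tumours, on linear axes from 0, with points for tumours, a dash for the mean and bars for the SD (n = 8 at 40 mg/kg, 8 at 160 mg/kg and 3 in vehicle). All 16 treated tumours lay above the 3 vehicle tumours for Ier3, and the tumours of a dose were widely spread for Fos.

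Fos, the AP-1 subunit, had the largest fitted difference among the listed genes without being called. Its probe set 1423100_at had a lowest, median and highest signal of 109.6, 242 and 616.4 at 40 mg/kg and of 72.1, 186 and 696.5 at 160 mg/kg, against 78.3, 72.5 and 152.6 in vehicle tumours. Of the 16 treated tumours 12 lay above all vehicle tumours, 7 of 8 at 40 mg/kg and 5 of 8 at 160 mg/kg, and 1 lay below them. Means were 296 ± 168 at 40 mg/kg, 234 ± 197 at 160 mg/kg (SD, n = 8 each) and 101 ± 44.7 in vehicle (SD, n = 3). The log2 difference was 1.19 (SE 0.48, 95% interval 0.18 to 2.19, adjusted p = 0.158) for both doses, 1.41 (adjusted p = 0.141) at 40 mg/kg and 0.96 (adjusted p = 0.305) at 160 mg/kg. Without vehicle tumour 3 and 160 mg/kg tumour 2 it was 1.53 for both doses (adjusted p = 0.231). With arrays weighted by their quality the difference for both doses was 1.44 and adjusted p = 0.00215, a setting in which 8907 probe sets were called in place of 1392.

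Fosb, the other Fos family member listed, was near the floor of the array and was not tested. Its probe set 1422134_at had signals of 2.5 to 15.1 at 40 mg/kg, 6.1 to 20.5 at 160 mg/kg and 2.0 to 24.8 in vehicle. The groups overlapped throughout.

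Jun and Junb, the partners of Fos in AP-1, were not called in either direction. The brighter Jun probe set, 1417409_at, ran from 526.9 to 929.6 at 40 mg/kg, from 470.4 to 1068 at 160 mg/kg and from 629.4 to 678 in vehicle, with 9 treated tumours above and 7 below all vehicle tumours. Its log2 difference for both doses was 0.03 (adjusted p = 0.935), and that of the second probe set, 1448694_at, was -0.20 (adjusted p = 0.575). Junb signals ran from 27.1 to 50.2 at 40 mg/kg, from 24.7 to 63.2 at 160 mg/kg and from 32.2 to 49.2 in vehicle, and the log2 difference was -0.03 (adjusted p = 0.955). The sign of the Junb difference turned positive under quantile normalization (0.03) and after subtraction of array medians (0.04).

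Egr1 and Egr2, zinc finger factors induced by growth factor and stress signals, were likewise not called. Egr1 had a lowest, median and highest signal of 194.5, 372 and 435.9 at 40 mg/kg and of 188.6, 304 and 559.9 at 160 mg/kg, against 245.6, 320.2 and 378.4 in vehicle tumours. Of the treated tumours 5 lay above and 4 below all vehicle tumours, and the log2 difference was 0.01 (SE 0.26, 95% interval -0.53 to 0.56, adjusted p = 0.983). Egr2 signals were 20.9 to 74.9 at 40 mg/kg, 21.8 to 57.8 at 160 mg/kg and 39 to 54.1 in vehicle, with a log2 difference of -0.08 (adjusted p = 0.889), and its second probe set gave 0.02 (adjusted p = 0.987).

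Ier2, Dusp1 and Atf3 had positive differences without a call. Ier2, a nuclear protein of the early growth response, had a lowest, median and highest signal of 326, 432 and 472.5 at 40 mg/kg and of 318.9, 379 and 691.6 at 160 mg/kg, against 337.6, 301.2 and 320.5 in vehicle. Although 14 of 16 treated tumours lay above all vehicle tumours, the log2 difference was 0.36 (SE 0.16, adjusted p = 0.195). Dusp1 signals were 202.9 to 591.7 at 40 mg/kg, 215 to 436.4 at 160 mg/kg and 203.4 to 248.7 in vehicle, with 12 treated tumours above and 1 below the vehicle range and a log2 difference of 0.41 (SE 0.22, adjusted p = 0.291). Atf3, a stress-induced factor of the ATF and CREB family, had 19.3 to 51.9 at 40 mg/kg, 16.4 to 66.6 at 160 mg/kg and 16.8 to 36.2 in vehicle, and its log2 difference was 0.34 (adjusted p = 0.569). The Atf3 difference ran from 0.043, without vehicle tumour 1, to 0.54 with 1 array left out, and was -0.024 with the replicate number as a block.

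**Figure D2:**
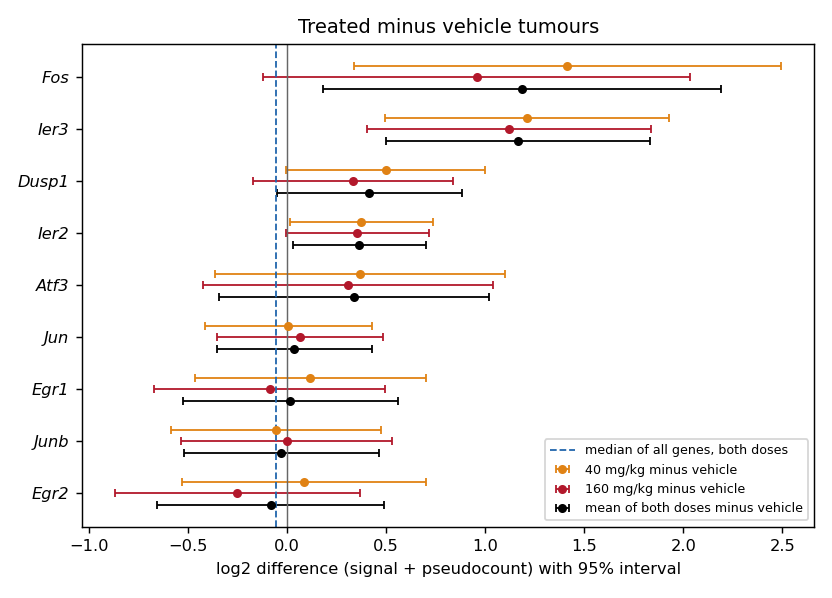
Log2 differences with 95% intervals for 9 immediate early genes at 40 mg/kg, at 160 mg/kg and for the mean of both doses, each minus vehicle; the dashed line is the median of all genes for both doses. The Ier3 interval for both doses, 0.50 to 1.83, the Fos interval, 0.18 to 2.19, and the Ier2 interval, 0.029 to 0.70, lay above 0, and after adjustment over all probe sets Ier3 alone was called.

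At the single doses 0 of the 9 genes were called against vehicle in limma, where 2.55% of all genes were called at 40 mg/kg and 4.89% at 160 mg/kg. At an unadjusted p under 0.05 the listed genes numbered 3 at 40 mg/kg (Fos, Ier2 and Ier3; 21% of all genes) and 1 at 160 mg/kg (Ier3; 22.2% of all genes). The median log2 difference of the listed genes was 0.37 at 40 mg/kg and 0.30 at 160 mg/kg, against -0.05 and -0.07 for all genes. Both comparisons use the same 3 vehicle tumours, so these values are not separate evidence.

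Between the doses, 160 against 40 mg/kg, 0 of the 9 genes were called in limma, and 0% of all genes. At an unadjusted p under 0.05 it was 0 of the 9 and 7.41% of all genes. The largest fitted difference was that of Fos, -0.46 (SE 0.38, 95% interval -1.26 to 0.34, adjusted p = 0.853), followed by Egr2 at -0.34 (adjusted p = 0.800). The Fos interval holds a fall as well as a rise, so equal levels at the doses were not shown.

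The spread between tumours of a dose was larger for Fos than for most genes. The SD of log2 signal within doses was 0.89 for Fos, larger than that of 92.3% of all genes and of 97.1% of the genes of like mean level (10 equal classes by mean). The ratio of highest to lowest tumour was 5.62 at 40 mg/kg, 9.66 at 160 mg/kg and 2.10 among the 3 vehicle tumours. Ier3 followed with an SD of 0.58, larger than that of 91.4% of genes of like level, and Egr1 with 0.47, larger than 88.0% of them. Jun and Dusp1 had SDs of 0.34 and 0.41, larger than those of 84.7% and 83.7% of genes of like level.

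The smallest spread in the list was that of Ier2, 0.28, below the median of 0.31 over all genes but larger than that of 69.6% of genes of like level, and the remaining genes lay between 0.34 for Jun and 0.55 for Atf3. The dim genes Atf3, Egr2 and Junb varied like other genes of their level, with 52.7%, 56.9% and 37.5% of their level class showing a smaller SD. Over the 9 genes the median SD was 0.47. No gene passed a test of its spread at 160 mg/kg against that at 40 mg/kg, with the lowest unadjusted p of 9 exact permutation tests, two-sided, at 0.181 for Junb.

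**Figure D3:**
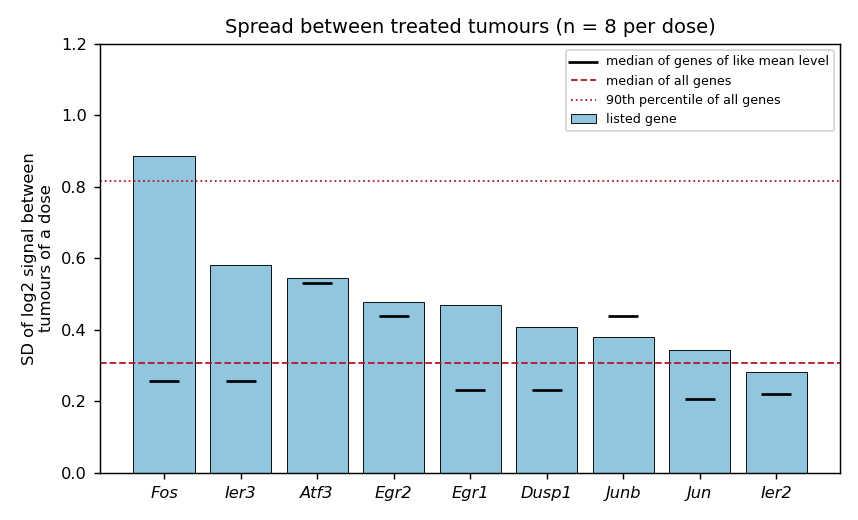
SD of log2 signal between treated tumours of a dose for 9 immediate early genes, as bars from 0; black marks show the median of genes of like mean level, and the red lines the median (0.31) and 90th percentile (0.82) of all genes. The Fos bar, 0.89, is the tallest and lies above the 90th percentile of all genes.

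Single tumours were high or low in several of these genes at once. The 160 mg/kg tumour 8 was among the 4 highest treated tumours for 8 of the 9 genes and the 40 mg/kg tumour 8 for 7 of the 9, whereas 160 mg/kg tumours 3 and 5 were among the 4 lowest for 5 of the 9. How often these tumours took such ranks over all genes was not counted, and the signals had no added normalization. Brightness of a whole array and a change in these genes were therefore not separated. The 160 mg/kg tumour 8 had a mean correlation of 0.927 to the other arrays, rank 3 from the lowest. The Fos signal was 696.5 and 616.4 in the tumours numbered 8 at 160 and 40 mg/kg, and Egr1 was 559.9 and 435.9 in them.

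Egr1 was the gene of the list that followed Fos across tumours. After dose means were subtracted, Pearson's r over the 16 treated tumours was 0.85 and Spearman's rho 0.88, with permutation p = 4e-05 for r and an adjusted p of 0.00076 over 19 relations tested. It was 0.86 within the 40 mg/kg tumours (exact p = 0.00327) and 0.85 within the 160 mg/kg tumours (exact p = 0.00719), and 0.76 without the 2 tumours farthest from the Fos median. Without 160 mg/kg tumour 2 it was 0.88, without tumour 8 of each dose 0.77, and with array medians subtracted 0.83.

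Over both doses none of the other 7 genes passed in the same family of relations. Their r with Fos was 0.44 for Egr2, 0.44 for Ier3, 0.41 for Junb, 0.40 for Jun, 0.32 for Atf3, 0.24 for Dusp1 and -0.22 for Ier2. Within doses the values of some genes lay far apart: r with Fos was 0.82 at 160 mg/kg (exact p = 0.0177, not adjusted) and 0.14 at 40 mg/kg (exact p = 0.747) for Egr2. For Dusp1 it was 0.72 at 160 mg/kg (exact p = 0.0381, not adjusted) and -0.20 at 40 mg/kg (exact p = 0.648), and for Ier2 -0.54 at 160 mg/kg (exact p = 0.180) and 0.46 at 40 mg/kg (exact p = 0.260). The difference between the doses was not tested. Across the 36 pairs of listed genes 25 had a positive r, the median was 0.22, and the pairs above 0.5 were Fos with Egr1, Ier3 with Dusp1 (0.65), Junb with Atf3 (0.64) and Egr1 with Egr2 (0.55). The arrays' own measures were set beside Fos: r was 0.48 with the 3′ to 5′ ratio of Gapdh control probe sets, -0.20 with that of Actb, and 0.65 with the array median signal, and none passed after adjustment. The r of the array median with Fos was 0.94 at 160 mg/kg (exact p = 0.00176, not adjusted) and -0.093 at 40 mg/kg (exact p = 0.825). With array medians subtracted, r with Fos was 0.83 for Egr1, against 0.85 before, 0.26 for Jun, against 0.40, and 0.11 for Dusp1, against 0.24. Marker lists of 8 cell types gave r between -0.46 (fibroblast and matrix) and 0.44 (neutrophil), none past adjustment.

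**Figure D4:**
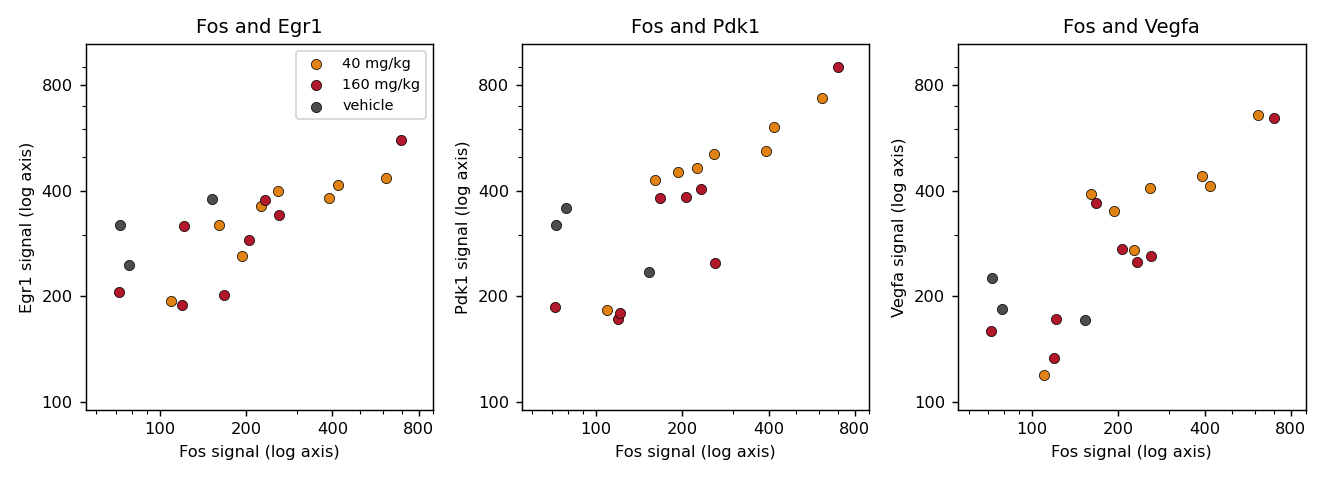
Fos signal of single tumours against the signals of Egr1, Pdk1 and Vegfa, with a point for each tumour coloured by group. The tumours numbered 8 of each dose lie at the upper right, with Fos at 616.4 (40 mg/kg) and 696.5 (160 mg/kg), and Egr1 and Fos rise together within both doses (r = 0.86 and 0.85).

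The genes outside the list most like Fos, by Pearson's r over the 16 treated tumours with dose means subtracted, were Pdk1 (0.88), Pfkfb3 (0.86), Vegfa (0.85), Slc2a3 (0.85) and Zfp28 (0.84). Among 13453 genes Egr1 ranked 3rd. Pdk1 restrains the entry of pyruvate into mitochondria, Pfkfb3 drives glycolysis, Slc2a3 is a glucose transporter and Vegfa is the main signal for new vessels, all known to be induced by low oxygen. Vegfa signals were 658.7 and 647.6 in the tumours numbered 8 at 40 and 160 mg/kg, and 119.1 in 40 mg/kg tumour 5, the tumour with the lowest Fos of its dose. At 160 mg/kg the tumour with the lowest Fos, tumour 5, had a Vegfa signal of 159.9, above the 133.8 of tumour 3. In vehicle the order differed: tumour 3 had the highest Fos, 152.6, and the lowest Vegfa, 171.8.

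A list of 25 hypoxia response genes was therefore chosen, after these values were seen, and is given as a description with no test. Of its 24 measured genes 19 had an r with Fos above 0.5, or 79.2%, against 5.67% of all genes, and the median r was 0.70 against 0.05. These 24 include Pdk1, Pfkfb3, Vegfa and Slc2a3, which prompted the list, and without these 4 it was 15 of 20 genes (75%), with a median r of 0.61. For Egr1 it was 17 genes (70.8%, against 7.92% of all genes), for Ier3 8 genes (33.3%, against 4.65%) and for Egr2 4 (16.7%, against 7.52%). Jun, Junb, Atf3 and Dusp1 had 1 each (4.17%), against 4.26%, 2.10%, 3.21% and 3.17% of all genes. Ier2 had 0, against 3.06%. Without tumour 8 of each dose, 12 of the 24 had an r with Fos above 0.5, against 6.01% of all genes, and the median was 0.50. Leaving out the 4 prompting genes as well gave 8 of 20 genes above 0.5 and a median of 0.45. With all treated tumours kept and array medians subtracted, 15 of the 24 were above 0.5, with a median r with Fos of 0.65. The share over all genes was not counted in that setting. Against vehicle, 0 of the 24 genes were called for both doses in limma, where 5.29% of all genes were. Their median log2 difference was 0.41, against -0.06 over all genes. An unadjusted p under 0.05 was found for 9 of them, against 23.3% of all genes.

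**Figure D5:**
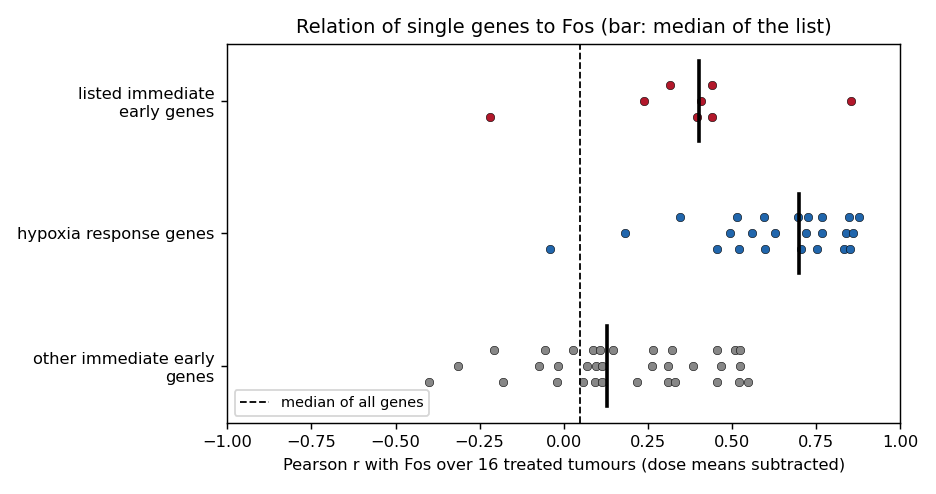
Pearson's r with Fos over 16 treated tumours, after dose means were subtracted, for single genes of the listed immediate early genes, of the hypoxia response genes and of other immediate early genes; bars mark list medians and the dashed line the median of all genes (0.05). The hypoxia response genes have a median of 0.70 and the other immediate early genes one of 0.13.

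Other immediate early genes were read from a further list of 40, of which 34 were tested. Socs3, which inhibits cytokine signalling, fell, and the other 33 were not called, so that 1 of 34 was called where 5.29% of all genes were. Socs3 averaged 435 ± 89.5 at 40 mg/kg, 369 ± 104 at 160 mg/kg (SD, n = 8 each) and 623 ± 45.0 in vehicle (SD, n = 3), with 15 of 16 treated tumours below all vehicle tumours and a log2 difference of -0.67 (SE 0.19, adjusted p = 0.0457). Without vehicle tumour 1, 2 or 3 the adjusted p was 0.183, 0.113 and 0.165, and without vehicle tumour 3 and 160 mg/kg tumour 2 it was 0.158. The median difference of the list was 0.11 for both doses, against -0.06 over all genes. With Fos, 5 of the 34 genes (14.7%, against 5.67% of all genes) had r above 0.5 (Nr4a1, Cebpd, Gadd45b, Maff and Ier5) and the lowest was that of Plk3, -0.40.

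Of 17 kinases and factors that act upstream of the immediate early genes, 12 were tested and 2 were called for both doses, where 5.29% of all genes were called, and 3 at 160 mg/kg, where 4.89% were. Mapk14, which encodes p38, fell: it averaged 462 ± 39.9 at 40 mg/kg, 411 ± 42.3 at 160 mg/kg and 582 ± 45.9 in vehicle, all 16 treated tumours lay below all vehicle tumours (as for 2.53% of all genes), and the log2 difference was -0.42 (adjusted p = 0.0172). Mapk8, which encodes JNK1, rose by 0.32 (adjusted p = 0.0409). Elk3, a partner of serum response factor, fell at 160 mg/kg by 0.68 on the log2 scale (adjusted p = 0.0332). None of these calls, for both doses or for Elk3 at 160 mg/kg, held when vehicle tumour 1, 2 or 3 was left out, with adjusted p = 0.131, 0.0548 and 0.0740 for Mapk14, 0.138, 0.128 and 0.160 for Mapk8 and 0.101, 0.0740 and 0.201 for Elk3, nor without vehicle tumour 3 and 160 mg/kg tumour 2 (0.0737, 0.147 and 0.190). At 160 mg/kg alone, Mapk14 was still called without vehicle tumour 2 or 3 (adjusted p = 0.0325 and 0.0475) and Mapk8 without vehicle tumour 1 or 2 (adjusted p = 0.0470 and 0.0484).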

How the data were processed

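RNA of 19 tumours was hybridized to Affymetrix Mouse 430 2.0 arrays, 1 array per tumour. That design comes from the platform table, which holds all 45101 probe sets of the deposited table, although the study's design text names the 430A 2.0 version. The authors deposited linear signal intensities from MAS5, per the submitters' processing notes; MAS5 scales each array separately, and its scaling target and version are not given in the sources used here. Groups and doses came from the sample descriptions. After 64 control probe sets were left out, 34945 of 45037 had 1 gene symbol, 932 had several and 9160 none, and a gene was named only from a probe set with 1 symbol.

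Intensities were analysed as log2(signal + 2.5), where 2.5 was the 10th percentile over the table, with no added normalization. Probe sets brighter than the array's 40th percentile on 3 or more arrays were kept, which left 31143. The 3 group means were fitted in 1 limma model (lmFit and eBayes with a variance trend, 16 residual degrees of freedom), p-values are two-sided and adjusted by the Benjamini-Hochberg method over all kept probe sets. Each gene was read through its kept probe set with the highest mean. Relations with Fos were tested by 100000 permutations within dose and exactly within each dose. The number of arrays, 3 of them in vehicle, limits the precision. Scan dates and hybridization batches were not used here.

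All 10 listed genes are named, with the called members of each other list and the 5 genes most like Fos. Of 9 tested endothelial markers 1 was called for both doses, where 5.29% of all genes were. It was Flt1, with a log2 difference of -0.71 (adjusted p = 0.0217 in limma). The calls on Flt1 and on the granule neuron precursor markers were not examined with arrays left out. The members and lists were chosen with earlier results of these data known. On simulated arrays of 31143 probe sets, the fit called 54% of log2 changes of 1 and 86% of changes of 2 for both doses against vehicle, and 3.45% of its calls were false. For 160 against 40 mg/kg it called 74% and 93%, with 5.65% of its calls false. The simulated noise was normal and independent between probe sets, and changes were added to randomly drawn probe sets. These shares are therefore averages and do not give the power for single genes such as Fos and Ier3, whose residual SDs on the log2 scale were 0.86 and 0.56. Alternatives were other normalizations, pseudocounts, filters and variance models, array weights, the compared groups alone, a replicate block, the mean of a gene's probe sets, and leaving out arrays. Analyses used R 4.3.3 with limma 3.58.1, and Python 3.11.15 with numpy 2.4.6, scipy 1.17.1, statsmodels 0.14.6 and matplotlib 3.10.9.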

Additional observations from a re-analysis of the deposited data

Results flagged for a closer look

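By Dixon's test on linear signals, a single tumour stood apart from the other 7 of its dose in 3 of the 24 combinations of probe set and dose. Chance marks about 1 in 20 only where values are normally distributed, which was not checked. The log2 values used elsewhere were not examined in this way, so the count is not read as an excess. Fos was at 696.5 in 160 mg/kg tumour 8, against 260.1 in the next highest. Ier2 was at 691.6 in 160 mg/kg tumour 5, against 473.4 in the next highest, while Fos was lowest of its dose in that tumour, at 72.1. Dusp1 was at 591.7 in 40 mg/kg tumour 5, against 370.5 in the next highest, and Fos was again lowest of its dose there, at 109.6.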

How the results depend on the processing

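Fos and Ier3 kept a positive difference against vehicle in every alternative tried, but the calls did not hold throughout. For both doses against vehicle the number of listed genes called was 1, and it was 0 without a filter, without a variance trend and without vehicle tumour 3 and 160 mg/kg tumour 2, and 5 with array weights. At 40 mg/kg it was 0, and became 4 with array weights, 1 when the 2 groups were fitted alone and 2 with the replicate block; at 160 mg/kg it was 0, and became 2 with array weights and 1 with the replicate block. With 1 array left out it ran from 0 to 1 in each of these 3 comparisons. The labels state no pairing by replicate number. Over all kept probe sets, deviations of the 14 same-numbered pairs correlated at -0.13 to 0.09. At both doses, though, Fos was highest in tumour 8 and lowest in tumour 5, and Ier3 highest in tumour 8 and lowest in tumour 4. No other listed gene shared both extremes between the doses. For both doses the block gave adjusted p = 0.0507 for Fos and 0.00486 for Ier3 in limma. What the number stands for was not tested. The replicate block gave adjusted p = 0.0493 for Fos at 40 mg/kg, and 0.0102 and 0.00726 for Ier3 at 40 and 160 mg/kg. Of all probe sets, 1392 were called for both doses (243 to 1662 with 1 array left out, 8907 with array weights, 819 with the block, 274 without the 2 arrays), 668 at 40 mg/kg (120 to 915, 7452, 324 and 169 in the same order, and 1553 for the compared groups alone), 1260 at 160 mg/kg (217 to 1544, 6145 with array weights, 629 for the compared groups alone, 220 without the 2 arrays) and 0 for 160 against 40 mg/kg (1 without a variance trend). Some signs turned, among them that of Atf3 (0.34 for both doses, 0.30 at 160 mg/kg) with the replicate block, and the cause was not tested. For both doses, Junb was 0.032 with quantile normalization, 0.037 with array medians subtracted, 0.022 with array weights and 0.15 without the 2 arrays; Egr2 was 0.021 with array weights, 0.046 with the block and 0.051 without the 2 arrays; Jun was -0.0091 with the block and -0.080 with probe sets averaged; Egr1 was -0.13 and Atf3 -0.024 with the block. At 40 mg/kg, Jun was -0.010 with quantile normalization, -0.039 with the block and -0.12 with probe sets averaged, Junb was 0.0080 with array weights and 0.12 without the 2 arrays, and Egr1 was -0.024 with the block. At 160 mg/kg, Junb was 0.084 with quantile normalization, 0.092 with array medians subtracted, 0.0054 with a pseudocount of 16, 0.036 with array weights and 0.19 without the 2 arrays; Egr1 was 0.0082 with array medians subtracted, 0.21 with array weights and 0.13 without the 2 arrays; Jun was -0.044 with probe sets averaged and Atf3 -0.055 with the block. For 160 against 40 mg/kg, Ier2 was 0.037 with array medians subtracted and 0.0030 without the 2 arrays. With 1 array left out, the differences for both doses ran from -0.15 to 0.16 (Egr1), -0.011 to 0.074 (Jun), -0.15 to 0.14 (Junb) and -0.19 to 0.031 (Egr2); at 40 mg/kg from -0.050 to 0.26 (Egr1), -0.024 to 0.25 (Egr2), -0.066 to 0.051 (Jun) and -0.17 to 0.12 (Junb); at 160 mg/kg from -0.25 to 0.055 (Egr1), -0.026 to 0.14 (Jun) and -0.12 to 0.17 (Junb); and for 160 against 40 mg/kg from -0.20 to 0.069 (Atf3), -0.13 to 0.030 (Ier2), -0.26 to 0.017 (Ier3), -0.031 to 0.14 (Jun) and -0.047 to 0.14 (Junb). The r of Ier2 with Fos was 0.46 within 40 mg/kg and 0.39 without the 2 tumours farthest from the Fos median, and that of Dusp1 was -0.20 and -0.026; within 160 mg/kg it was -0.54 for Ier2, and 0.72 for Dusp1 and 0.82 for Egr2, both at an unadjusted exact p under 0.05. The alternatives of the relation with Fos beyond the doses and the farthest tumours were chosen after seeing the data.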

Other observations

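Genes of the ATF4 stress response, which include targets of the amino acid and endoplasmic reticulum stress pathways that also induce Atf3, had positive differences for both doses in all 10 tested members, with a median log2 difference for both doses over vehicle of 0.40, compared with -0.06 over all genes, and 2 were called, where 5.29% of all genes were. The smallest of these differences was 0.0018, and at 160 mg/kg alone 8 were positive and 2 negative. Asns, which makes asparagine, averaged 1054 ± 125 at 40 mg/kg, 1223 ± 491 at 160 mg/kg (SD, n = 8 each) and 634 ± 32.2 in vehicle (SD, n = 3), with a log2 difference of 0.79 (adjusted p = 0.0408) and 15 of 16 treated tumours above all vehicle tumours. Vldlr, a lipoprotein receptor, averaged 569 ± 159 at 40 mg/kg, 476 ± 199 at 160 mg/kg and 229 ± 63.4 in vehicle, with a log2 difference of 1.13 (adjusted p = 0.0256). Of 12 tested heat shock genes 1 was called, again beside 5.29% of all genes: Bag3, a cochaperone, fell by 0.75 on the log2 scale (adjusted p = 0.0244), with 98.5 ± 20.2 at 40 mg/kg, 85.0 ± 17.7 at 160 mg/kg and 153 ± 16.2 in vehicle, and all 16 treated tumours lay below all vehicle tumours (as for 2.53% of all genes). None of these 3 calls for both doses held when vehicle tumour 1, 2 or 3 was left out, an alternative chosen after seeing the data, with adjusted p = 0.160, 0.105 and 0.172 for Asns, 0.144, 0.107 and 0.0612 for Vldlr and 0.137, 0.0665 and 0.118 for Bag3.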
